A study of Homo sapiens with 8 samples.

Results

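The set described here is 35 genes of DNA replication and S phase, chosen by name as the entries of the deposited expression table that carry those symbols. All 35 were found among the 52576 genes of the table. RNA was measured in the established lung adenocarcinoma cell line NCI-H2009, grown in RPMI medium with fetal bovine serum. All 8 libraries came from cells that had been given dCas9-KRAB, a cutting-dead Cas9 fused to the KRAB domain, which brings chromatin repressors to the DNA that a guide RNA names. The libraries formed 4 groups of 2, which differed in the guide RNA added next. The first group received no guide (titled Empty), the second a non-targeting guide without a match in the human genome (titled Control), and the others either of 2 guides to an enhancer called e3 (titled e3KRAB1 and e3KRAB2, here e3 guide 1 and e3 guide 2). The comparisons ask what differs in the cells when the repressor is placed on e3. The labels do not say whether the cells were 1 clone, how long after transfection RNA was taken, or whether replicate libraries stem from separate cultures. The p-values below cover only the spread among these libraries, and that spread may be technical.

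DNA replication is prepared in G1, when CDC6 and its partners load the MCM2 to MCM7 ring, the core of the replicative helicase, onto origins. In S phase the ring is activated with the GINS complex, polymerases copy both strands around the sliding clamp PCNA, and histone chaperones rebuild chromatin behind the fork. Most of these genes are transcribed in a wave at the G1 to S transition under E2F factors, so their RNA is widely used as a sign of cells in S phase, and MYC is known to bind and raise many of them. In RNA from whole cultures, a smaller share of cells in S phase and less RNA per S phase cell cannot be told apart.

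The promoters of 28 of the 35 genes were available as RefSeq windows on GRCh38.p14, each of 300 bases from 250 before to 50 after the annotated start. They were searched on both strands for E2F letters (TTTCCCGC, TTTCGCGC, TTTGCCGC or TTTGGCGC), for the E-box CACGTG that MYC with MAX can bind, for CCAAT and for TTTGAA, the letters of the CHR element of G2 and mitosis genes. Matches to different motifs, or to 1 motif on opposite strands, were allowed to overlap. E2F letters stood in 16 of the 28 windows (57.1%), against 3.31% of 35116 RefSeq promoter windows of the same length, and 5 of the 28 held 2 or more matches. CACGTG stood in 4 (14.3%, all promoters 7.26%), namely MCM2, MCM7, FEN1 and GMNN. CCAAT stood in 20 (71.4%, all promoters 34.6%), and TTTGAA in 0 of 28 (all promoters 15.2%). In 70 windows of other replication genes listed below, E2F letters stood in 27.1%, CACGTG in 11.4%, CCAAT in 51.4% and TTTGAA in 7.14%. In 19 windows of the G2 and mitosis genes listed below, CACGTG stood in 26.3% and CCAAT in 73.7%. Both exceed the shares in the 28. The lists hold 1 window per gene, while the 35116 windows were not reduced to 1 per gene. A match is a run of letters and does not show that a factor bound there.

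The 120 bases before the start are printed 5′ to 3′ on the strand of the gene for 8 of these genes, with E2F letters and CACGTG in capitals. MCM2, MCM6 and UNG are shown because they were the genes that passed the test in some comparison, PCNA because it had the highest level, and GINS2, HELLS, UBR7 and UHRF1 as examples of E2F letters at different distances from the start. In MCM6 TTTGGCGC and its neighbour on the opposite strand overlap and read as 1 run of capitals, and a like pair lies further upstream in its window. MCM2 held CACGTG just before its start and its E2F letters only after the start, outside the stretch printed. UNG held neither motif anywhere in its window.
MCM6, chr2:135876444-135876563, minus strand: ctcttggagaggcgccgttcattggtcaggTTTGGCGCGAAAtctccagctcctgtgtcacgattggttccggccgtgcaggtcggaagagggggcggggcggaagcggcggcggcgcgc
PCNA, chr20:5126623-5126742, minus strand: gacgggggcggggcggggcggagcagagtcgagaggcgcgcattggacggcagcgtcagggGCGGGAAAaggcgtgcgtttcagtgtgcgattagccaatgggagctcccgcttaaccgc
GINS2, chr16:85688955-85689074, minus strand: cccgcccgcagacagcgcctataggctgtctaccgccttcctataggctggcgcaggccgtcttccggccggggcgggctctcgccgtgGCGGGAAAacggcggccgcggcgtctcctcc
HELLS, chr10:94545668-94545787, plus strand: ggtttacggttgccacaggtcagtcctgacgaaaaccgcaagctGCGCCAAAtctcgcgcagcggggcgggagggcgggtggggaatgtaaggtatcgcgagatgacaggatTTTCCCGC
UBR7, chr14:93207136-93207255, plus strand: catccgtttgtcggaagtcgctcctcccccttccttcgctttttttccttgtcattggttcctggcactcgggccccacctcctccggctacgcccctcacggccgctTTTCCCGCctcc
UHRF1, chr19:4909381-4909500, plus strand: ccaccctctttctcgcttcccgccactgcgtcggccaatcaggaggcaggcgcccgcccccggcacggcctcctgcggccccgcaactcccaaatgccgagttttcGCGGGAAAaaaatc
MCM2, chr3:127598291-127598410, plus strand: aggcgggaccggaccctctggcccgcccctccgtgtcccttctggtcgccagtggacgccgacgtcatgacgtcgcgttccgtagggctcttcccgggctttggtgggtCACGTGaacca
UNG, chr12:109097477-109097596, plus strand: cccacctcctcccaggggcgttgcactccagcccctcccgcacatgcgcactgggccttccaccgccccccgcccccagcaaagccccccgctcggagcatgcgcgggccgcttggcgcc

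Depth inferred from the steps between low values was 3875080 to 5754470 reads per library. The 5 epithelial markers (EPCAM, KRT8, KRT18, KRT19 and CDH1) lay between 173.3 and 1364 RPKM (reads scaled to gene length and sequencing depth). CD3E and DCN were listed at 0 in every library, and PTPRC, PDGFRB, CDH5 and VWF at 0 or below 1 RPKM. PECAM1 was not analysed here. COL1A1, a collagen gene, lay at 5.55 to 6.68 RPKM with the e3 guides and 3.18 to 5.53 in the controls (limma adjusted p = 0.141). EPCAM lay at 211.0 to 233.6 RPKM with the e3 guides and 243.6 to 254.1 in the controls (limma adjusted p = 0.0866). CDH1 lay at 200.3 to 214.8 and 173.3 to 184.1 RPKM (limma adjusted p = 0.0320). These 3 markers thus separated the e3 libraries from the controls, and their part in the results below was not tested. The no-guide libraries stood apart from the non-targeting ones, since 12.4% of the 13979 genes tested differed between these control groups. Each comparison below is therefore also given against each control alone. MYC, the gene on chromosome 8 for which e3 is studied as an enhancer, read 74.63 and 72.71 RPKM in the no-guide libraries, 88.93 and 90.11 in the non-targeting ones, 42.36 and 43.43 with e3 guide 1, and 36.26 and 36.21 with e3 guide 2. It fell by 1.02 on the log2 scale with the e3 guides (limma adjusted p = 0.00215), and no e3 library overlapped a control. MYC was also called 0.28 higher with the non-targeting guide than with no guide. That call was lost when the variance trend was left out (limma adjusted p = 0.0780).

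The mean level of the 35 genes over the 8 libraries ran from 4.92 RPKM for the helicase gene BLM to 117.4 RPKM for PCNA, with a median of 18.1 RPKM against 8.17 RPKM over all genes tested. A single value rested on 59 to 1631 reads, with a median of 337.5, and all 35 genes passed the filter of a mean of at least 1 RPKM. The sliding clamp PCNA, the histone RNA binder SLBP and MCM7 had the highest means. BLM, the histone RNA processing factor CASP8AP2 and TIPIN, a partner of the fork protein TIMELESS, had the lowest.

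The genes varied over the 8 libraries about as much as other genes did. The coefficient of variation ran from 3.08% for MCM3 to 20.5% for TIPIN with a median of 11.2%, against 12.7% over the 8852 genes whose every value rested on at least 50 reads. The highest library was less than 1.5 times the lowest for 25 of the 35, a share that was not computed over all genes. PCNA read 130.5 and 120.3 RPKM in the no-guide libraries, 108.6 and 112.7 in the non-targeting ones, 119.3 and 108.9 with e3 guide 1, and 112.7 and 125.7 with e3 guide 2. The no-guide values lay above both non-targeting and both guide 1 values, and 1 guide 2 value lay between them.

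**Figure D1:**
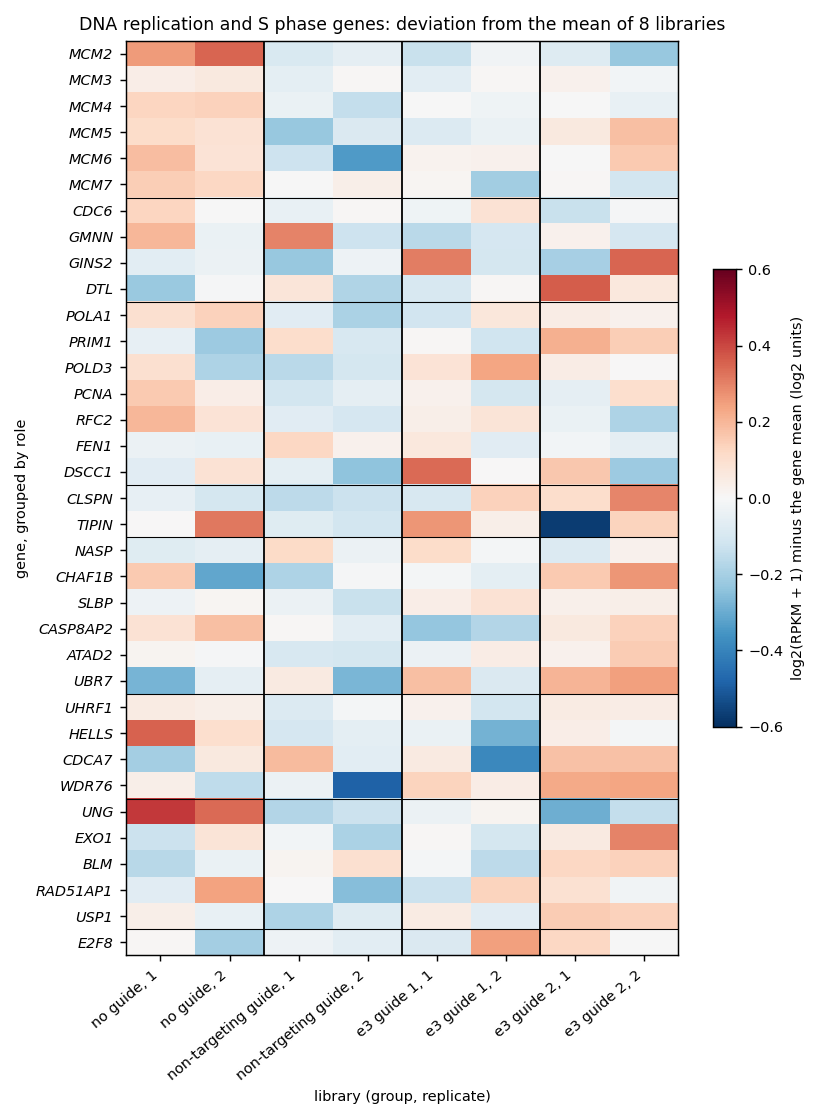
Rows are the 35 genes in order of role, columns the 8 libraries, and colour the log2(RPKM + 1) value minus the gene's mean over the libraries (red above, blue below). The MCM and UNG rows are red in the no-guide columns, and no e3 column is red or blue throughout.

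Summed over the 35 genes, expression came to 1126 and 1104 RPKM in the no-guide libraries, 1022 and 1006 in the non-targeting ones, 1082 and 1042 with e3 guide 1, and 1066 and 1105 with e3 guide 2. By this sum the e3 libraries lay above both non-targeting libraries, and all but the second guide 2 library lay below both no-guide libraries. On the log2 scale the median gene of the set deviated from its own mean by 0.037 and 0.035 in the no-guide libraries, by -0.06 and -0.10 in the non-targeting libraries, by 0.01 and -0.02 with e3 guide 1, and by 0.04 and 0.05 with e3 guide 2. The non-targeting libraries were the lowest pair by both measures. A non-targeting library held the lowest of the 8 values for 14 genes. The highest lay in a no-guide library for 15 genes and in an e3 guide 2 library for 12. The matching shares were not computed over all genes.

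With both e3 guides pooled against the 4 controls, none of the 35 genes passed the test, against 5.2% of all genes tested. In limma 3 of the 35 had an unadjusted p under 0.05 (22.2% of all genes), and the smallest adjusted p was 0.166. The change was above 0 for 22 genes and below 0 for 13, with a median of 0.04 against -0.02 over all genes tested. The 95% interval of the change lay within 0.5 log2 units of 0 for 32 of the 35 genes, and within 1 for all of them. The exceptions to the narrower bound were UNG, with a lower limit of -0.55, and WDR76 and UBR7, with upper limits of 0.59 and 0.53. Only WDR76 and SLBP had all 4 e3 values above all 4 control values, where 7.58% of all genes did, and no gene of the set had them all below, where 7.51% did. A model that keeps the 4 groups apart, and so leaves the difference between the control groups out of the error, called 2 genes lower, MCM2 (limma adjusted p = 0.0278) and UNG (limma adjusted p = 0.0247). This model called 17.3% of all genes, and 8.81% lower.

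**Figure D2:**
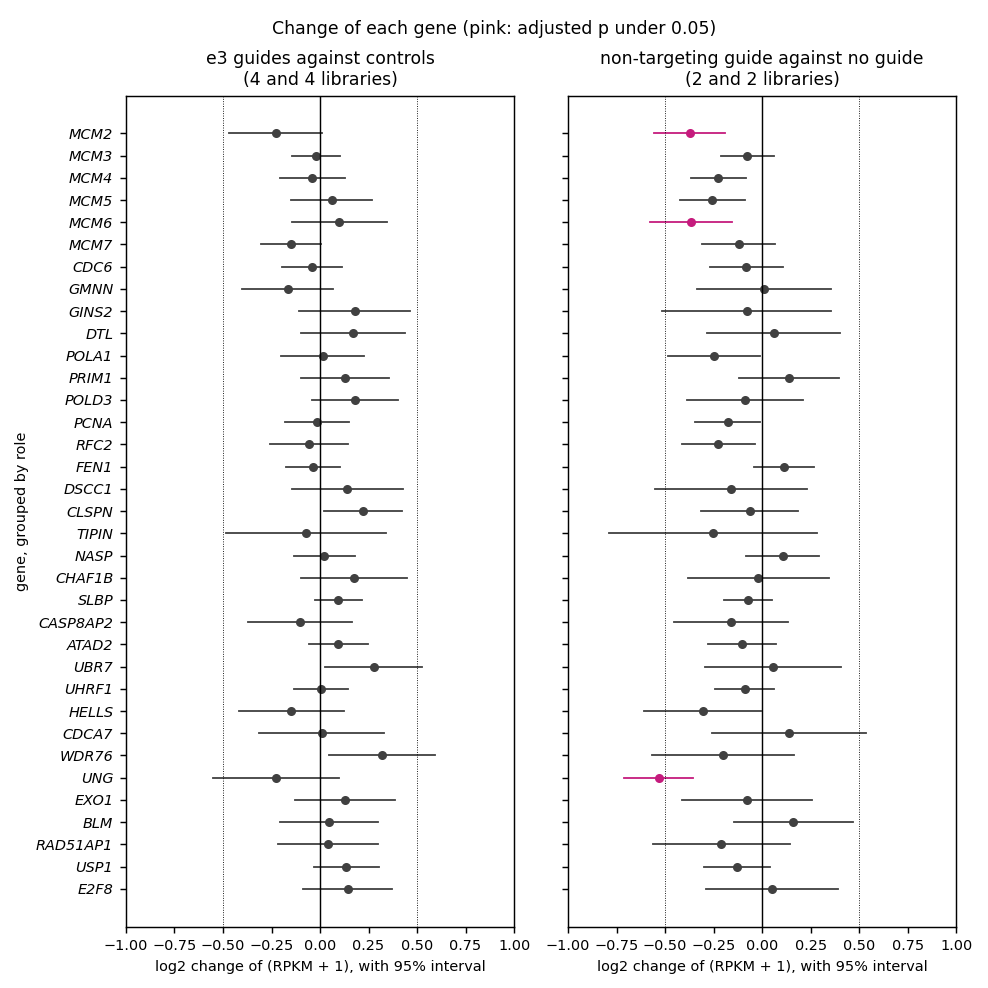
Points are the log2 change of each of the 35 genes and bars its 95% interval, for the e3 guides against controls on the left and the non-targeting guide against no guide on the right, with dotted lines at 0.5 either side of 0. Pink marks an adjusted p under 0.05, which no gene reached on the left and MCM2, MCM6 and UNG reached on the right.

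Among the MCM genes, MCM2 and MCM6 fell from no guide to the non-targeting guide, and none of the 6 passed the test for the e3 guides against controls. MCM2 read 47.23 and 50.40 RPKM in the no-guide libraries, 36.92 and 37.98 in the non-targeting ones, 35.86 and 38.79 with e3 guide 1, and 37.36 and 33.51 with e3 guide 2. Only the no-guide libraries stood apart, above all 6 others. MCM2 fell by 0.37 between the control groups (limma adjusted p = 0.0203, and from 0.0546 to 0.108 without any 1 of their 4 libraries) and by 0.42 from no guide to the e3 guides (limma adjusted p = 0.00903). Against the non-targeting guide alone the e3 libraries differed by -0.04 (limma adjusted p = 0.803), with a 95% interval from -0.22 to 0.13. Against all controls MCM2 averaged 36.4 ± 2.26 RPKM with the e3 guides and 43.1 ± 6.71 in the controls (SD, n = 4 each), a difference of -0.23 (limma adjusted p = 0.245). With e3 guide 2 alone it fell by 0.27 (limma adjusted p = 0.0389), but the guide 2 values overlapped those of the non-targeting guide, and the call was lost without either guide 2 library or any 1 control library (limma adjusted p from 0.0564 to 0.258).

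MCM6 read 48.93 and 45.41 RPKM in the no-guide libraries, 39.20 and 33.64 in the non-targeting ones, 43.54 and 43.65 with e3 guide 1, and 42.84 and 47.89 with e3 guide 2. Here the non-targeting libraries stood apart, below all 6 others. MCM6 fell by 0.37 between the control groups (limma adjusted p = 0.0382). The call was lost without either no-guide library, without non-targeting replicate 2 and without either e3 guide 1 library (limma adjusted p from 0.0589 to 0.188), and also when genes with low values were kept in the fit (limma adjusted p = 0.0757). With the e3 guides MCM6 was 0.28 above the non-targeting guide (limma adjusted p = 0.0829) and -0.08 from no guide (limma adjusted p = 0.479). Neither difference passed the test.

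MCM7 read 74.16 and 73.11 RPKM in the no-guide libraries, 66.77 and 68.48 in the non-targeting ones, 67.52 and 57.79 with e3 guide 1, and 67.17 and 61.83 with e3 guide 2. Its difference for the e3 guides against controls was -0.15 (limma adjusted p = 0.237), and the e3 values overlapped the non-targeting ones. MCM7 shares 392 bases of exon with AP4M1 on the opposite strand, so the counts of both genes may mix if strand was not used. MCM3, MCM4 and MCM5 had intervals within 0.27 log2 units of 0 for the e3 guides. All 6 MCM genes were lower in both non-targeting libraries than in both no-guide libraries, as were 29.5% of all genes tested. Their sum was 332.6 and 331.5 RPKM in the no-guide libraries, 283.8 and 284.7 in the non-targeting ones, 293.8 and 290.3 with e3 guide 1, and 302.5 and 300.0 with e3 guide 2. The no-guide sums lay above the 6 others, which spanned 283.8 to 302.5 RPKM.

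The proteins of MCM2 to MCM7 join in 1 ring with a single copy of each, and their RNA levels per length stood in nearly the same order in every library. MCM7 was the highest in 8 of 8 libraries. MCM3 was the next in 7 of 8, and MCM5 in 1. MCM2 was the lowest in 6 libraries, and MCM6 in the remaining 2, no-guide replicate 2 and non-targeting replicate 2. MCM3, MCM4 and MCM5 averaged 53.5, 49.8 and 49.3 RPKM over the controls (SD 1.96, 4.75 and 5.45, n = 4). MCM3 lay above MCM4 in every library, and MCM5 lay above MCM4 in some libraries and below it in others.

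The licensing and helicase activation genes gave no call in any of the 7 comparisons. They are CDC6, which loads the MCM ring, GMNN, which blocks its loading after origins fire, GINS2, a subunit of the GINS complex, and DTL, which directs destruction of the licensing factor CDT1. GINS2 read 52.37 and 53.35 RPKM in the no-guide libraries, 46.60 and 53.63 in the non-targeting ones, 68.01 and 50.84 with e3 guide 1, and 47.60 and 70.02 with e3 guide 2. In each e3 group 1 library was above all controls and the other was not, and these values rested on 105 to 160 reads over a gene model of 533 bases. GMNN averaged 16.7 ± 0.981 RPKM with the e3 guides and 19.0 ± 2.75 in the controls, and CDC6 36.6 ± 2.35 and 37.7 ± 2.03 (SD, n = 4 each). DTL averaged 10.8 ± 1.67 with the e3 guides and 9.44 ± 1.02 in the controls. None of these 4 differences passed the test.

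Among the polymerase, clamp and Okazaki fragment genes, none of 7 was called in any comparison. POLD3, a subunit of DNA polymerase delta, read 9.088 and 7.304 RPKM in the no-guide libraries, 7.430 and 7.783 in the non-targeting ones, 8.985 and 10.11 with e3 guide 1, and 8.726 and 8.456 with e3 guide 2. All 4 e3 values were above both non-targeting values, but 1 no-guide value lay among them, and the difference from controls was 0.18 (limma adjusted p = 0.319). PRIM1, the primase that starts each fragment, averaged 15.6 ± 1.69 RPKM with the e3 guides and 14.2 ± 1.42 in the controls. POLA1, the polymerase that extends the primer, averaged 12.9 ± 0.765 and 12.8 ± 1.43 RPKM. FEN1, the nuclease that trims Okazaki fragments, averaged 56.0 ± 2.36 with the e3 guides and 57.5 ± 3.19 in the controls (SD, n = 4 each). FEN1 shares exon bases with FADS2 and TMEM258, and PRIM1 with NACA. RFC2 of the clamp loader averaged 27.1 ± 2.19 and 28.3 ± 2.86 RPKM, and DSCC1 of an alternative loader 11.1 ± 1.96 and 9.86 ± 0.993, in the same order. The e3 and control values of all 7 overlapped.

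CLSPN and TIPIN protect stalled forks and pass the signal to the checkpoint kinase. CLSPN read 17.31 and 16.64 RPKM in the no-guide libraries, 16.01 and 16.36 in the non-targeting ones, 16.72 and 19.84 with e3 guide 1, and 19.40 and 22.23 with e3 guide 2. Of the 4 e3 values, 3 were above every control and 1 lay among them. The difference was 0.22 (unadjusted p = 0.0357, limma adjusted p = 0.191). Against controls, e3 guide 2 alone gave 0.31 (limma adjusted p = 0.0669), which passed only when genes below a mean of 5 RPKM were left out (limma adjusted p = 0.0464). TIPIN read 6.032 and 7.741, 5.673 and 5.493, 7.412 and 6.182, and 3.722 and 6.689 RPKM in the same order of groups. Its libraries of 1 group differed as much as the groups did, and it shares 579 bases of exon on the same strand with the pseudogene RPL9P25.

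None of the 6 histone supply and chromatin assembly genes was called in any of the 7 comparisons. SLBP, which binds the 3′ end of histone RNA, read 87.60 and 90.29 RPKM in the no-guide libraries, 87.50 and 81.54 in the non-targeting ones, 92.07 and 95.15 with e3 guide 1, and 91.52 and 91.87 with e3 guide 2. All e3 values were above all controls, yet by only 0.10 on the log2 scale at the mean, which did not pass (95% interval -0.02 to 0.21, limma adjusted p = 0.327). UBR7, a ubiquitin ligase that acts on histones, read 9.414 and 11.19 RPKM in the no-guide libraries, 12.13 and 9.445 in the non-targeting ones, 13.34 and 10.91 with e3 guide 1, and 13.58 and 14.01 with e3 guide 2. Both guide 2 values were above all controls and the guide 1 values overlapped them. The difference for UBR7 was 0.28 (unadjusted p = 0.0341, limma adjusted p = 0.187), in a gene that shares 511 bases of exon with an overlapping model. CASP8AP2 read 5.313 and 5.735, 4.980 and 4.691, 4.063 and 4.272, and 5.189 and 5.548 RPKM in the same order of groups, with e3 guide 1 lowest. NASP, a chaperone of histone H3, averaged 41.0 ± 2.37 RPKM with the e3 guides and 40.3 ± 2.55 in the controls. CHAF1B of the chromatin assembly factor averaged 12.8 ± 1.45 and 11.3 ± 1.77, and ATAD2, a bromodomain ATPase, 29.3 ± 1.67 and 27.4 ± 1.22 RPKM (SD, n = 4 each).

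Among the genes of DNA methylation and chromatin at the fork, WDR76 had the largest difference of the 35. WDR76, a WD-repeat protein of chromatin, read 8.934 and 7.728 RPKM in the no-guide libraries, 8.453 and 5.927 in the non-targeting ones, 9.621 and 8.986 with e3 guide 1, and 10.36 and 10.41 with e3 guide 2. The lowest e3 value, 8.986, lay just above the highest control, 8.934. The difference for WDR76 was 0.32 (95% interval 0.05 to 0.59, limma adjusted p = 0.166). The exact two-sided permutation test over the 8 libraries gave p = 0.0286, the smallest that 70 arrangements allow. Any gene whose e3 and control values do not overlap gives this p, so it only restates the separation above. Over all genes, 7.58% lay wholly above the controls and 7.51% wholly below. UHRF1, which brings the methylation of the parent strand to the new one, averaged 51.1 ± 2.66 RPKM with the e3 guides and 50.9 ± 2.12 in the controls (SD, n = 4 each). The remodeller HELLS averaged 9.39 ± 0.988 and 10.5 ± 1.71 RPKM, and CDCA7, which works with HELLS, 10.4 ± 1.94 and 10.3 ± 1.30. None of these 3 passed the test.

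UNG, the uracil DNA glycosylase that removes uracil from new DNA, showed the largest difference between the control groups. It read 48.06 and 45.31 RPKM in the no-guide libraries, 31.37 and 32.47 in the non-targeting ones, 34.71 and 36.06 with e3 guide 1, and 28.86 and 32.12 with e3 guide 2. The no-guide libraries lay far above the rest, whose values spanned 28.86 to 36.06 RPKM. UNG fell by 0.53 between the control groups (limma adjusted p = 0.00367) and by 0.49 from no guide to the e3 guides (limma adjusted p = 0.0108). From the non-targeting guide to the e3 guides it differed by 0.04 (limma adjusted p = 0.865), with a 95% interval from -0.18 to 0.26. Against all controls, e3 guide 2 gave a fall of 0.33 (limma adjusted p = 0.0138) although its values overlapped those of the non-targeting guide, and the call was lost without guide 2 replicate 1 (limma adjusted p = 0.111). The difference between the e3 guides was -0.21 (limma adjusted p = 0.397).

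**Figure D3:**
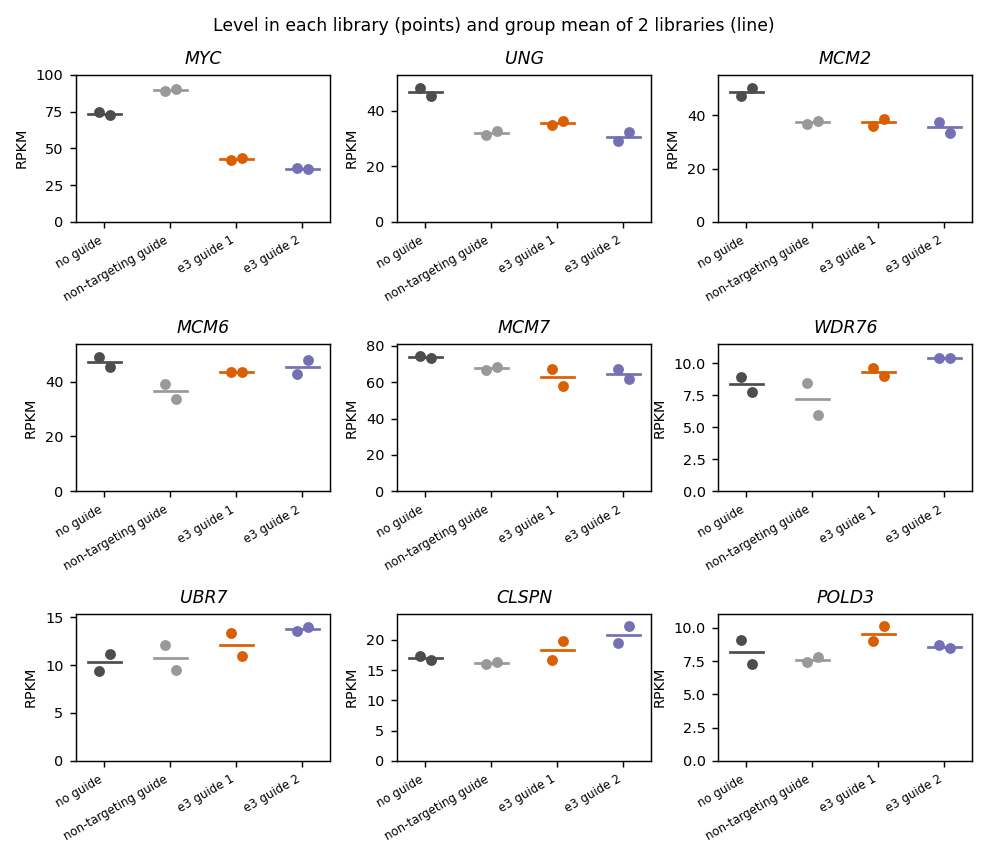
Level in RPKM (vertical axes, starting at 0) of MYC and 8 of the 35 genes in each of the 8 libraries; points are libraries and lines the mean of the 2 libraries of a group. MYC is lower in all 4 e3 libraries, while UNG and MCM2 are high only in the no-guide libraries and MCM6 is low only in the non-targeting ones.

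Of the other repair genes, BLM read 4.258 and 4.735 RPKM in the no-guide libraries, 4.965 and 5.310 in the non-targeting ones, 4.845 and 4.282 with e3 guide 1, and 5.439 and 5.497 with e3 guide 2. The guide 1 values overlapped the controls, and both guide 2 values lay above them. EXO1, a nuclease of mismatch repair, averaged 6.89 ± 0.955 RPKM with the e3 guides and 6.20 ± 0.595 in the controls, and RAD51AP1, a factor of homologous recombination, 12.6 ± 1.10 and 12.3 ± 1.91. USP1, which removes ubiquitin from PCNA, averaged 40.1 ± 2.80 and 36.4 ± 2.38 RPKM. E2F8, a repressor among the E2F factors and the only transcription factor of the set, averaged 8.17 ± 0.936 with the e3 guides and 7.29 ± 0.515 in the controls (SD, n = 4 each). None of these passed the test in any of the 7 comparisons.

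The control groups also differed from each other. From no guide to the non-targeting guide 3 of the 35 genes fell (UNG, MCM2 and MCM6) and none rose, where 12.4% of all genes tested were called and 5.81% were called lower. An unadjusted p under 0.05 was found for 9 of the 35, against 27.4% of all genes. The change was below 0 for 26 of 35, with a median of -0.09 against -0.01 over all genes. The groups did not overlap for 18 genes that were lower with the non-targeting guide and 3 that were higher, while the shares over all genes were 29.5% and 27.2%. The 3 higher were NASP, FEN1 and BLM, which were singled out after their values were seen.

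Set against either control alone, the e3 guides gave different calls. Against no guide, MCM2 and UNG fell and no gene rose, where 16.7% of all genes were called and 8.03% were called lower. An unadjusted p under 0.05 was found for 6 of the 35 (all genes 30.9%). The call for MCM2 was lost without no-guide replicate 2 (limma adjusted p = 0.0849), and that for UNG without either no-guide library (limma adjusted p = 0.0907 and 0.0573). Against the non-targeting guide no gene of the set was called, against 6.84% of all genes, and 4 had an unadjusted p under 0.05 in limma (all genes 21.9%). The change was then above 0 for 26 genes, with a median of 0.07 against 0.00 over all genes, and 8 genes lay wholly above the non-targeting libraries (all genes 16%) and none below (all genes 16.3%). These comparisons share their libraries with that of the control groups and are not independent of it.

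Each e3 guide against all controls gave few calls. With guide 1 no gene of the set was called, against 8.99% of all genes, and 4 had an unadjusted p under 0.05 in limma (all genes 24.4%). With guide 2 the 2 genes MCM2 and UNG fell and none rose, where 14.5% of all genes were called and 7.62% were called lower. With guide 2, 9 of the 35 had an unadjusted p under 0.05 (all genes 28.7%). The change for guide 2 was above 0 for 23 of the 35, with a median of 0.06 against -0.02 over all genes. Both guide 2 values lay above all controls for 9 genes (all genes 14.9%) and below them for 0 (all genes 15.3%). The share of calls among the 35 genes was 5.71% for guide 2, below that over all genes. Between the guides none of the 35 was called, where 0.0286% of all genes were, and 3 had an unadjusted p under 0.05 in limma (all genes 10.4%). The change from guide 1 to guide 2 ran from -0.37 to 0.34 with a median of 0.06.

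A wider list of 83 other replication genes, of which 82 were in the table and 81 tested, was tested in the same fits. With the e3 guides against controls 1 fell, 0 rose and 80 did not pass (1.24% called, all genes 5.2%), and the median change was -0.01. The gene that fell was RNASEH2C, a subunit of the enzyme that removes ribonucleotides from DNA. It read 24.45 and 24.50 RPKM in the no-guide libraries, 25.17 and 23.22 in the non-targeting ones, 18.52 and 18.64 with e3 guide 1, and 18.21 and 19.16 with e3 guide 2. All e3 values lay below all controls, and it fell by 0.37 (limma adjusted p = 0.0134). These values rested on only 51 to 83 reads over a gene model of 706 bases. Within groups the libraries agreed more closely than read counting gives on average (chi-square per degree of freedom 0.087). Without e3 guide 2 replicate 1 the limma adjusted p was 0.0537.

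Other genes of the list had differences that did not pass. Of the origin recognition and licensing genes, ORC5 differed by -0.39 (limma adjusted p = 0.159), CDT1 by 0.21 and ORC2 by -0.17. Of the origin firing genes, GINS1 differed by 0.24, GINS3 by 0.30 and GINS4 by 0.16. The small polymerase delta subunit POLD4 ranged from 34.40 to 36.78 RPKM with the e3 guides and from 22.47 to 32.37 in the controls (limma adjusted p = 0.103). POLD2 of the same enzyme ranged from 36.72 to 47.2 RPKM with the e3 guides and from 47.68 to 57.43 in the controls (limma adjusted p = 0.130). These subunits of 1 polymerase stood on opposite sides of 0. The clamp loader genes RFC3 and RFC4 differed by -0.32 and 0.19, and the checkpoint genes CHEK1, TIMELESS and ATR by -0.21, 0.12 and -0.15. Of the histone deposition and methylation genes, SSRP1 differed by -0.22, DNMT1 by -0.16 and SUPT16H by -0.16.

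E2F1, an activator of S phase genes, read 23.41 and 21.77 RPKM in the no-guide libraries, 18.56 and 21.66 in the non-targeting ones, 24.66 and 27.63 with e3 guide 1, and 27.98 and 26.47 with e3 guide 2. The e3 values lay above all controls (0.31, limma adjusted p = 0.0633). The helicase gene BRIP1 differed by 0.47 (limma adjusted p = 0.0702). The model with 4 groups called 17.3% of all genes. In the wider list it was read only for called genes and, in each role, the 3 with the smallest p for the e3 guides. Of these it also called E2F1, BRIP1 and POLD4 higher and POLD2, SSRP1, DNMT1 and SUPT16H lower. TFDP1, the partner of E2F factors, differed by -0.13 and E2F7 by 0.29. BRCA1 of recombination differed by 0.14. With e3 guide 2 alone 4 of the 81 rose (POLD4, E2F7, BRIP1 and E2F1) and 4 fell (POLD2, SSRP1, RNASEH2C and SUPT16H). The share called was 9.88%, below the 14.5% of all genes. With guide 1 alone POLD4 rose and RNASEH2C fell (2.47% called, all genes 8.99%). From no guide to the non-targeting guide 4 of the 81 rose (POLD4, RNASEH2B, E2F4 and RNASEH2A) and 3 fell (WEE1, CHTF18 and RBL2). Here 8.64% of the list was called, against 12.4% of all genes. POLD4 thus rose between the control groups too, by 0.43 (limma adjusted p = 0.00769), and the e3 guides differed from the non-targeting guide by 0.15, which did not pass (limma adjusted p = 0.225). E2F1 and BRIP1 rose and RNASEH2C fell against the non-targeting guide (3.70% called, all genes 6.84%).

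A list of 24 genes of G2 and mitosis, the phases after S, is set beside the 35 because it uses the same libraries and cycle. With the e3 guides against controls 6 fell, 0 rose and 18 did not pass, where 5.2% of all genes were called. The change was above 0 for 1 of the 24, against 46.6% of all genes, with a median of -0.20. With guide 2 alone 14 fell and 0 rose (58.3% called, all genes 14.5%). With guide 1 alone 4 fell and AURKB rose (20.8% called, all genes 8.99%). Between the control groups PLK1, AURKB and UBE2C rose with the non-targeting guide and 0 fell (12.5% called, all genes 12.4%). CCNB1, the cyclin that starts mitosis, read 118.2 and 109.9 RPKM in the no-guide libraries, 112.2 and 117.2 in the non-targeting ones, 91.00 and 89.34 with e3 guide 1, and 83.38 and 77.13 with e3 guide 2. All e3 values lay below the controls, and it fell by 0.42 (limma adjusted p = 0.00999). The mitotic kinases PLK1 and AURKA fell by 0.45 and 0.32, CDC20, which triggers anaphase, by 0.33, the proliferation marker MKI67 by 0.28 and BIRC5 of the centromere passenger complex by 0.28, each with e3 values that did not overlap the controls. Each of these 5 calls was lost in limma without either e3 guide 2 library, and also with no variance trend (limma adjusted p from 0.0568 to 0.0980). Those of MKI67, AURKA and BIRC5 were also lost with a replicate block and when most of the other libraries were left out singly. Quantile normalization lost those of MKI67 and BIRC5, and median-ratio scaling or no filter on low values that of BIRC5. The call of CCNB1 was kept in every setting tried. The 24 genes summed to 1604 and 1590 RPKM in the no-guide libraries, 1651 and 1606 in the non-targeting ones, 1453 and 1469 with e3 guide 1, and 1308 and 1306 with e3 guide 2. By this sum the e3 libraries lay below all controls. For the sum of the 35 replication genes they lay above both non-targeting libraries, and all but the second guide 2 library lay below both no-guide libraries. The difference between the lists was not tested. In the promoter windows, TTTGAA stood in 13 of 19 genes of the G2 and mitosis list (68.4%) and E2F letters in 2 (10.5%).

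**Figure D4:**
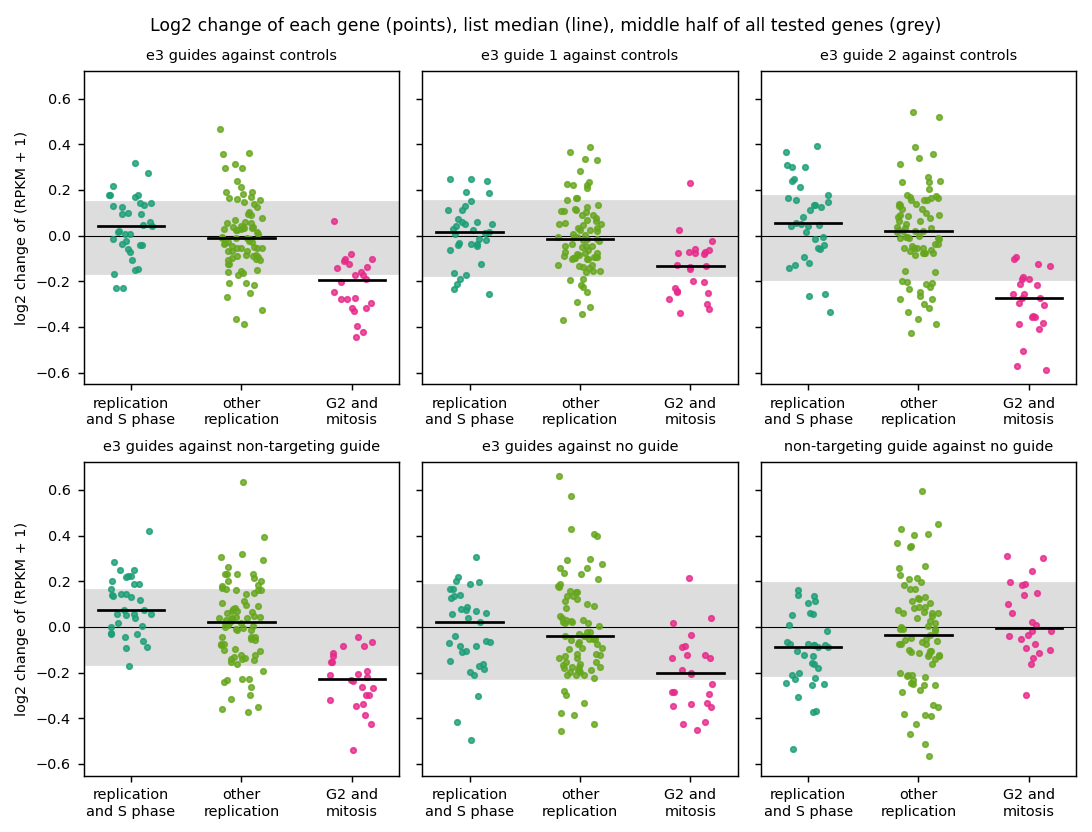
Points are the log2 change of single genes for the 35 replication and S phase genes, the 81 other replication genes and the 24 genes of G2 and mitosis in 6 comparisons; lines are list medians and the grey band is the interquartile range of all genes tested. The medians of the first list lie at 0.04 for the e3 guides against controls and -0.09 between the control groups, and that of G2 and mitosis at -0.20 for the e3 guides.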

How the data were processed

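The deposited table gave 1 RPKM value per gene and library for 52576 genes under versioned Ensembl identifiers and symbols, and the authors had scaled reads to gene length and depth before deposit. Cufflinks and the build hg19 appear, with no role or version, per the submitters' processing notes. The aligner, the counting, the use of strand and the annotation release are not given in the sources used here. Poly(A) RNA was selected, per the labels' protocols. Depth was inferred from the steps between values, which were whole reads to within 0.03 reads for 13979 of the 13979 genes tested.

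Tests used limma 3.58.1 in R 4.3.3 (moderated, two-sided, variance trend) on log2(RPKM + 1) for genes averaging 1 RPKM or more. Benjamini-Hochberg adjustment ran over all 13979 genes in each of 7 comparisons, with calls at an adjusted p under 0.05. Changes on this scale understate those of low genes. The e3 guides were compared with controls in a model of 2 groups, single groups in a model of 4 groups, and the e3 guides with 1 control group in the 6 libraries concerned. The procedure was checked on simulated data. Alternatives were another pseudocount (0.1), other filters, median-ratio scaling, quantile normalization, no variance trend, a replicate block, a 4-group model and leaving out each library.

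The genes and lists were chosen with earlier results of these data known. Values in every library are given for genes called in any comparison, the 6 with the smallest p for the e3 guides, the 3 highest and the 3 lowest. In each other list, called genes and up to 3 with the smallest p are named. GINS2, E2F1 and CCNB1 were given in full after their values were seen. Exon overlaps come from GENCODE 29 and promoters from RefSeq, both on a later build than hg19, so no coordinates of the table are given. Copies of PCNA, FEN1 and UNG in the table (5 pseudogenes) were listed at 0. No promoter entry was used for MCM4, MCM5, POLD3, DSCC1, ATAD2, WDR76 and E2F8. Results for 2 genes are not reported here.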

Additional observations from a re-analysis of the deposited data

Results flagged for a closer look

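In 3 of 70 groups of 4 libraries (35 genes, controls and e3 guides each), the library farthest out lay beyond the 95% limit of Dixon's test, which divides its gap to the nearest other library by the range. Chance alone gives about 1 such group in 20. All 3 were among the e3 libraries. MCM6 read 47.89 RPKM in e3 guide 2 replicate 2, where the other e3 libraries read 42.84, 43.54 and 43.65 (gap over range 0.839). SLBP read 95.15 RPKM in e3 guide 1 replicate 2, where the others read 91.52, 91.87 and 92.07 (0.849). UHRF1 read 47.17 RPKM in e3 guide 1 replicate 2, where the others read 51.94, 52.65 and 52.76 (0.854).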

How the results depend on the processing

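For both e3 guides and guide 1 against controls, guide 2 against guide 1, and both e3 guides against the non-targeting libraries, 0 of the 35 genes were called in every setting tried, except that the 4-group model called 2 (MCM2 and UNG) for the e3 guides against controls. For e3 guide 2 against controls the main count of 2 became 1 (UNG) with no filter on low values, 1 (UNG) with median-ratio scaling, 0 with no variance trend and 4 (CLSPN, MCM2, UNG and USP1) with a minimum mean of 5 RPKM. Leaving out 1 library gave 0 to 2, with 0 without e3 guide 2 replicate 1, CHAF1B in place of MCM2 without no-guide replicate 1, and WDR76 in place of MCM2 without non-targeting replicate 1. Quantile normalization kept 2 with USP1 in place of MCM2 (limma adjusted p = 0.0531 for MCM2). Between the control groups the count of 3 became 5 (with MCM4 and MCM5) with a minimum mean of 5 RPKM or quantile normalization, 1 (UNG) with no variance trend, 2 with no filter on low values (MCM6 at a limma adjusted p of 0.0757), and 1 to 3 when 1 library was left out. For the e3 guides against no guide the count of 2 ranged from 0 to 2 without 1 library, and with no filter MCM4 took the place of UNG. The causes were not tested.

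Libraries with the same replicate number shared no broad deviation over all genes tested, with correlations of -0.022 to 0.014 over 6 pairs of groups. Such correlations cannot show whether same-numbered libraries were handled together. With the number as a replicate block, the count for e3 guide 2 against controls was 1 (UNG, with MCM2 at a limma adjusted p of 0.0587) and that for the control groups 2 (MCM6 at 0.0577). The block left the counts of the other 5 comparisons as they were.

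Over 87 results for single genes, 1309 values under alternatives kept direction and call in 1211 cases, lost the call in 74, gained it in 14 and changed sign in 10. The sign changed only when 1 library was left out and in differences that had not been called. The ranges without 1 library were -0.15 to 0.002 for MCM2 and -0.025 to 0.132 for MCM6 (guide 2 against guide 1), -0.005 to 0.099 for UNG (e3 against non-targeting), -0.005 to 0.275 for POLD3 (e3 against no guide), and, against controls, -0.001 to 0.107 for BLM, -0.169 to 0.108 for TIPIN and -0.054 to 0.034 for PCNA. The median change of the 35 genes ranged from 0.003 to 0.082 for the e3 guides against controls and from -0.135 to -0.068 between the control groups. Of the 35 genes, depth limits TIPIN most, at 59 reads in its lowest library.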
